A study of Rattus norvegicus with 40 samples.

Results

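The salt effect in blood T cells of SS/MCW rats was read from all 33567 regions of the authors' table that sets HS against LS chow in MCW blood at 10 weeks of age. No region was selected, and the table is 1 of 15 that together list 630893 regions. It rests on 8 of the 40 libraries of the series. The Dahl salt-sensitive (SS) rat is an inbred strain that becomes hypertensive when fed much salt. Reduced representation bisulfite sequencing, which reads cytosine methylation in CpG-rich fragments, was applied to T cells from blood and from kidney. Both groups compared were Dahl SS/JrHsdMcwi rats (SS/MCW, called MCW below), aged 10 weeks. The LS group ate the chow labelled LS and the HS group the chow labelled HS for 3 weeks, read here as low and high salt. T cells of 3 rats were pooled, with 4 pools a group, and a pool gave 1 blood library, labelled as circulating T cells, and 1 kidney library. The labels give no sex, sort or gate. MCW LS rats at 7 weeks and Dahl SS/JrHsdMcwiCrl rats (SS/CRL, called CRL) on LS and HS chow at 10 weeks, each again with 4 pools, are used only for comparison.

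DNA methylation is the addition of a methyl group to cytosine, in mammals mostly at CpG, the dinucleotide of a cytosine followed by a guanine. CpG-rich transcription starts are largely free of it, and gene bodies and the sequence between genes mostly carry it. Imprinted genes are the exception at starts: their control regions carry methylation on the chromosome of one parent and not on the other, so that intermediate levels are usual there. A level below is the percentage of methylation of a region that the authors give for a group. Neither values of single pools nor read depths are in the table, so that no spread, interval or test of the pools could be computed beside a level. To be called, a region needed an adjusted p from the authors under 0.05 together with a difference from them of 10 percentage points or more. Only called regions are said to have risen or fallen. Coordinates are of the rn5 build.

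HS and LS blood differed at few regions, in both directions. Of the 33567 regions 157 were called (0.468%), with 67 higher (0.200%) and 90 lower (0.268%) on HS chow. Mean levels were 39.1% (LS) and 39.0% (HS) across the table, and the median difference was 0 points. A difference under 2 points was seen at 59.9% of regions and under 5 points at 91.2%. Regions called higher went from a median of 42.1% to 55.2%, and regions called lower from 57.1% to 38.1%. The median change of the called regions was 13.5 points, 100 of them changed by under 15 points and 12 by at least 20. The largest was an intergenic region of 6 CpGs at chr1:89196572-89196604, which fell from 68.1% to 39.4%. Most called regions held few CpGs: 93 held 5, the fewest that any region of the table holds, and 17 held at least 10. Regions with 5 CpGs made up 70.9% of all regions, and 0.391% of them were called. The share called was 0.747% at 6 to 9 CpGs, 0.675% at 10 to 19 and 0.0910% at 20 or more. Regions with 5 CpGs were thus called less often than those with 6 to 19.

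**Figure D1:**
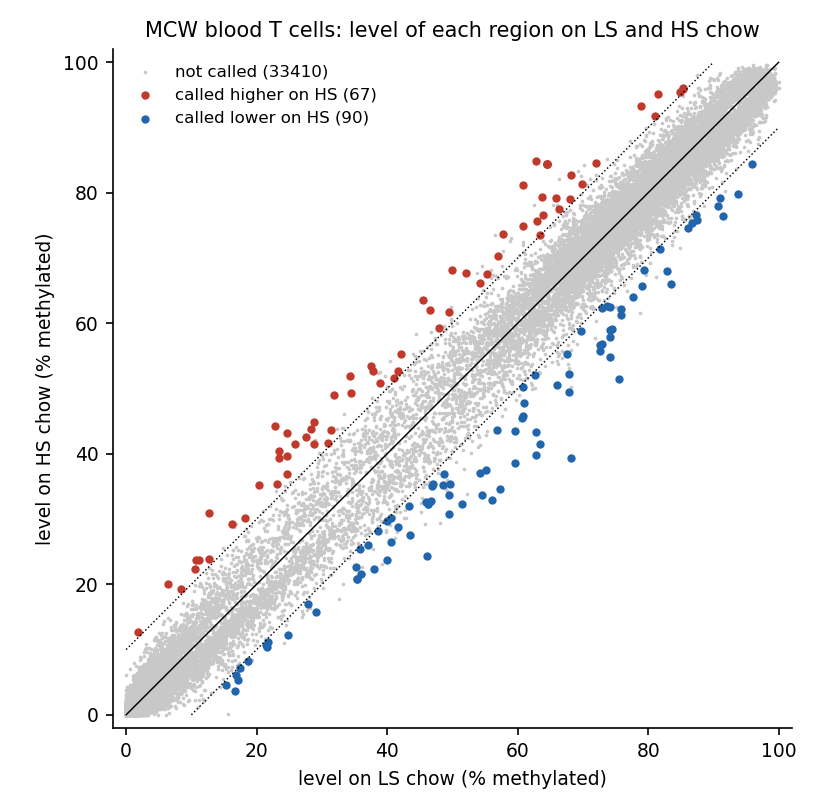
Methylation level of each region on LS chow (x axis, %) and on HS chow (y axis, %) in MCW blood T cells. Each point is 1 region, red points are the 67 called higher and blue points the 90 called lower on HS chow. The solid line marks equal levels and the dotted lines a difference of 10 points; 91.2% of regions lie within 5 points of equality.

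The calls depended on which of the authors' columns was used. A further 200 regions differed by at least 10 points and were not called. The authors' q-value was under 0.05 at 17 regions, of which 7 also differed by at least 10 points. With the Benjamini-Hochberg adjustment of their further p-value in place of the adjusted p, 33 regions were called. The adjusted p was under 0.05 at 5480 regions, and at 2503 of these the authors' difference was exactly 0, with levels of at most 1.29%. When only regions with at least 10% in 1 of the groups were adjusted, 68 regions were called, 30 higher and 38 lower. The smallest p-value in the authors' deposited table was 3.9e-14, and the smallest that exact ranking of 4 and 4 pools could reach is 0.0286, so that the calls speak of these pools and not of rats at large.

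Called regions lay mostly at intermediate methylation. Regions with a mean level between 20 and 60% made up 9.60% of the table and 52.2% of the calls, 82 of 157. Of the 1531 regions between 20 and 40%, 2.61% were called, and of the 1690 between 40 and 60%, 2.49%. The share was 0.534% between 5 and 20%, 0.560% between 60 and 80% and 0.231% above 80%. No region under 5% could reach the minimum difference, and 12997 regions lay there. Transcription starts as a class had the smallest share, 0.312% of 10576 regions (15 higher and 18 lower), against 0.643% of 7154 gene body regions (23 and 23) and 0.493% of 15837 intergenic regions (29 and 49). Their median level was 0.807% on LS chow. Among starts at 40 to 60%, 10 of 202 regions were called (4.95%), 8 of them lower. Chromosome 12 had the highest share, 0.930%, and chromosome 16 had 0 of 1033 regions called.

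**Figure D2:**
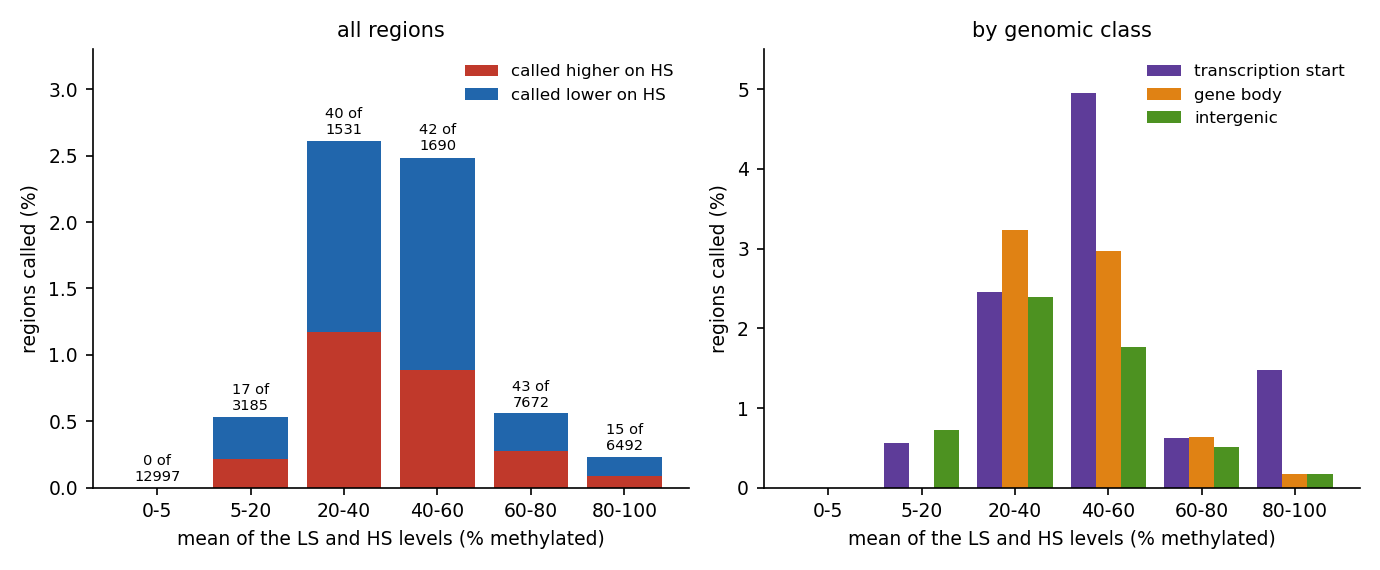
Percentage of regions called (y axis) by the mean of the LS and HS levels (x axis, %). Left, all regions, split into called higher (red) and called lower (blue) with the counts above each bar; right, the same by the authors' genomic class. The share is 2.61% and 2.49% in the 2 bins between 20 and 60%, and 4.95% for starts at 40 to 60%.

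Genes with a called region numbered 72 of the 7237 that have a region (0.995%). A region called higher was present in 34 genes (0.470%) and a region called lower in 41 (0.567%). Of the called regions, 78 carry no gene name in the table. Of the 72 genes 57 have an entry in the RefSeq promoter sequences. At least 2 called regions were held by 6 genes, and Gnas held the most. In Vom2r4 and Hoxaas3, which are among the 6, the called positions have identical values.

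Gnas encodes the alpha subunit of the stimulatory G protein, which couples hormone receptors to cyclic AMP. It is an imprinted locus with alternative starts that yield different transcripts and that are methylated on opposite parental chromosomes. The table has 16 Gnas regions over 52.2 kb (chr3:178426126-178478406, plus strand in RefSeq) and assigns their transcripts to 3 starts. At the upstream start, a region of 17 CpGs (chr3:178426623-178426771) fell from 46.0% to 32.7% (adjusted p = 1.52e-09 by the authors' deposited table). At the middle start, a region of 5 CpGs (chr3:178438693-178438737) rose from 49.6% to 61.8%, and 1 of 21 CpGs (chr3:178440528-178440694) rose from 22.8% to 44.3%. In the gene body, a region of 8 CpGs (chr3:178470665-178470749) fell from 48.6% to 35.3%. At the downstream start, a region of 15 CpGs (chr3:178472211-178472309) rose from 12.7% to 23.9% (adjusted p = 3.52e-08 by the authors' deposited table). The locus thus moved in both directions, with 3 regions higher and 2 lower. The other 11 regions were not called (smallest adjusted p = 0.104 in the authors' deposited table). The next region along the middle start, of 33 CpGs, had levels of 42.0% and 37.1%, while the authors' deposited table gives a difference of -10.4 points for it (adjusted p = 0.209). The 5 called Gnas regions were called with the further p-value too, and those of 17 and 21 CpGs also with the q-value.

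**Figure D3:**
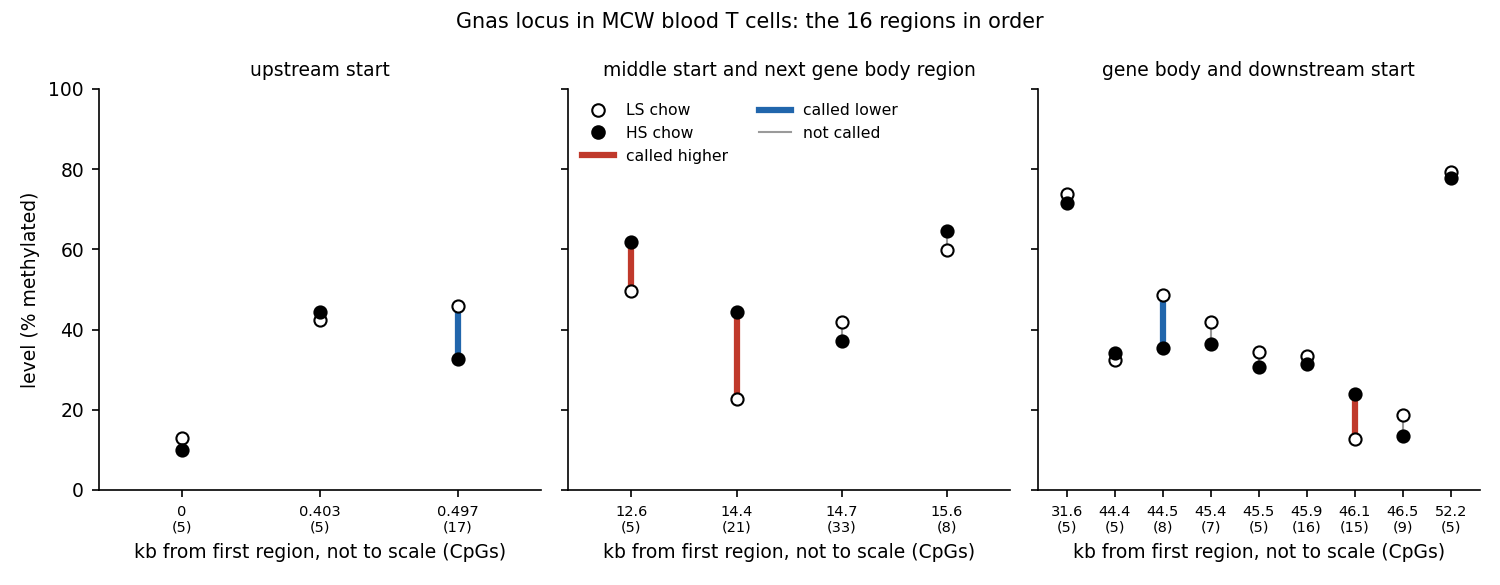
Level (y axis, %) of the 16 Gnas regions on LS chow (open circles) and HS chow (filled circles), in order along the chromosome and evenly spaced, with the distance from the first region in kb and the number of CpGs below. Red bars join regions called higher (3), blue bars regions called lower (2) and grey lines regions not called (11).

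The sequences at the 3 Gnas starts are shown because the table assigns 4 of the called regions to starts of this gene. They are RefSeq windows of 300 bases in the GRCr8 build, from 250 before to 50 after the start, on the plus strand of chromosome 3, with every CpG in capitals. In GRCr8 the middle and the last start lie 13.6 and 47.7 kb beyond the first. In the table the middle start carries regions 12.6 to 14.7 kb, and the downstream start regions 45.4 to 46.5 kb, from the first region. Since the builds differ, the regions could not be placed on these bases.
Gnas, upstream start (chr3:183489398-183489697): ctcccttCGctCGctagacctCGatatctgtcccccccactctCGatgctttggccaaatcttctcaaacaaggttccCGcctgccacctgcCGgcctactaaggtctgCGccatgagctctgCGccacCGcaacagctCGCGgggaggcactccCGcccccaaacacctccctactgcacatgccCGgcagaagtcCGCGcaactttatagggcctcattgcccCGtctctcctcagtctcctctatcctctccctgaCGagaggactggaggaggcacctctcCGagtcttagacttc
Gnas, middle start (chr3:183502993-183503292): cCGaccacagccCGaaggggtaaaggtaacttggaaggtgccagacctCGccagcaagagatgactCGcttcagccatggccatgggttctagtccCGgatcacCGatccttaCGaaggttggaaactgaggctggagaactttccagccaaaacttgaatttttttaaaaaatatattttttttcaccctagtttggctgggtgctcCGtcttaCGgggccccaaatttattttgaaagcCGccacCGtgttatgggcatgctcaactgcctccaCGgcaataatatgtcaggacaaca
Gnas, downstream start (chr3:183537089-183537388): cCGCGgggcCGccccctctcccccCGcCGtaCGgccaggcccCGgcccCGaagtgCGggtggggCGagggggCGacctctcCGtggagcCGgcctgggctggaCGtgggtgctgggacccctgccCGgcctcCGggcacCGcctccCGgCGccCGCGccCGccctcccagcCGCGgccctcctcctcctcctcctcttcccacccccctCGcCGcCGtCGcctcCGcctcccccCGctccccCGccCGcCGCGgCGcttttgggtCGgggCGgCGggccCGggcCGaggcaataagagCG
The first holds 18 CpGs and 2 sites CCGG, the palindrome at which MspI cuts, the usual enzyme of this method (searched on 1 strand, as it reads alike on both). The middle window holds 12 CpGs and 1 such site, and the last 41 and 6. The median of the 33469 RefSeq promoter windows was 7 CpGs, 41.5% held at least 10 and 51.4% held a CCGG.

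Other imprinted genes fell where they were called. Of 71 genes on the list of imprinted genes 35 had a region, and 5 were called (14.3%, against 0.995% of all genes): Gnas in both directions and Nnat, Blcap, Grb10 and Meg3 lower. They account for 8 of 135 regions, 5.93%. Since these regions often sit at intermediate levels, the share at 20 to 60% is given too: 7 of 50 imprinted regions were called there (14.0%), against 82 of all 3221 (2.55%). Gnas holds 16 of the 135 regions and 5 of the 8 called ones, and without it 3 called regions are left on the list. Nnat and Blcap are called by the same region. The shares of regions called thus rest mostly on the Gnas locus. The median difference over the list was -1.38 points, with 53 regions above 0 and 81 below, against a median of 0 over all regions. The list had a median level of 31.0% on LS chow. All regions at a mean level of 20 to 40% had a median of -2.44 points (-1.64 without those near ribosomal RNA genes). Those at 40 to 60% had -0.303. The list spans all levels, with only 50 of its 135 regions at 20 to 60%, so that these medians are not of like regions. Whether the list leaned more than other regions of its levels was not tested. The list was chosen with its high count in these data already known, and its count is a description.

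The region shared by Nnat, which encodes the membrane protein neuronatin, and Blcap (chr3:161555610-161555779, 14 CpGs) fell from 49.5% to 33.7%. A start region of Grb10, which encodes an adaptor inhibiting the insulin receptor (chr14:91914066-91914095, 7 CpGs), fell from 47.0% to 35.3%. A start region of Meg3, a maternally expressed long noncoding RNA (chr6:142820946-142821006, 5 CpGs), fell from 60.8% to 50.2%. Meg3 was not called when only regions with at least 10% in 1 group were adjusted. The Nnat and Blcap, Grb10 and Meg3 regions were all not called with the q-value or with the further p-value adjusted. Zrsr1, a splicing factor gene within an intron of Commd1, stayed just under the minimum, at 49.2% and 39.4% over 11 CpGs, a difference of -9.78 points in the authors' deposited table (adjusted p = 8.84e-05). Igf2r, the receptor that clears insulin-like growth factor 2, had a start region at 34.3% on LS and 41.9% on HS chow and a gene body region at 14.8% and 9.25%, neither called. Regions between these 2 were mostly lower on HS chow, none of them called. They had 30.3% and 26.7%, 37.8% and 30.9%, 38.4% and 30.1%, 33.9% and 26.6%, and 43.3% and 40.3%. Another there was higher, at 37.7% and 40.5%. Dlk1, a neighbour of Meg3, had a gene body region at 36.9% and 45.5%, also not called. The RefSeq window at the Grb10 start is printed for its density of CpGs (GRCr8, chr14:90816338-90816637, minus strand, CpGs in capitals). The called region could not be placed on it, since the builds differ.
Grb10 start: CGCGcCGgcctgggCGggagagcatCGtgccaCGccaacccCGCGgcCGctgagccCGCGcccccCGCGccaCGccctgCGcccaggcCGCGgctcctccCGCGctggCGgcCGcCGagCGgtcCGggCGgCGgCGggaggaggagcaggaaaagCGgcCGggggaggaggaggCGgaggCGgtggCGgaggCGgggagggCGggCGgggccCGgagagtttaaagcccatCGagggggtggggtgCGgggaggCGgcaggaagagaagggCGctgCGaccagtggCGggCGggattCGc
It holds 44 CpGs and 4 sites CCGG, and 10.3% of RefSeq windows hold at least 30 CpGs.

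The largest increases at named genes ran from 14.9 to 21.5 points, and Gnas led them. Sod3, the gene of the superoxide dismutase secreted from cells, went up from 60.8% to 81.2% over 9 CpGs of its gene body (chr14:61072275-61072382). Among start regions, that of Ttc22, a tetratricopeptide repeat protein, rose from 24.7% to 43.3%, and that of Tlnrd1, a talin rod domain protein, from 12.7% to 30.9%. Each of these regions holds 5 CpGs. Other starts shared this pattern. Tektl1, a tektin-like protein, rose from 31.9% to 49.1%. Ppp1r3d, a glycogen-targeting subunit of protein phosphatase 1, rose from 28.8% to 44.8%. Lefty2, an inhibitor of Nodal signalling, rose from 25.9% to 41.5%, also at a start. On LS chow these start regions lay between 12.7% and 31.9%, and on HS chow between 30.9% and 49.1%. Tox2, a DNA-binding factor of follicular helper T cells and natural killer cells, rose from 20.3% to 35.3% over 5 CpGs of its gene body. Tecta, a protein of the inner ear, rose from 46.6% to 62.1% over 10 CpGs. Ntng2, a netrin-like membrane protein, rose from 37.8% to 52.7%. Of these, Ttc22, Tektl1, Ppp1r3d, Lefty2, Tox2 and Ntng2 were not called when only regions with at least 10% in 1 group were adjusted. With the further p-value adjusted, Tecta stayed called, and Sod3, Ttc22, Tlnrd1, Tektl1, Ppp1r3d, Lefty2, Tox2 and Ntng2 did not. With the q-value none of these, Tecta included, was called.

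The largest decreases at named genes ran from 15.0 to 24.1 points. Dclre1a, a nuclease of DNA crosslink repair, fell most, from 75.5% to 51.4% over 9 gene body CpGs (chr1:284732957). At starts, Ndufa10, a subunit of respiratory complex I, fell from 62.8% to 39.9% over 9 CpGs (chr9:99316810), a region the table also gives to Ndufa10l1. Trappc6a, a subunit of a vesicle tethering complex, fell from 54.5% to 33.8%. These starts were methylated at intermediate levels in both groups, far above the median of their class. The start region of Nek2, a kinase of mitosis, fell from 49.5% to 30.7%. Neu1, the lysosomal sialidase, fell from 67.8% to 49.4%. Prkce, a protein kinase C isoform, fell from 40.0% to 23.7%. Gene body regions fell too. There, Shank3, a scaffold protein of synapses, had 2 neighbouring regions 14 bp apart that fell from 61.0% to 47.8% and from 56.1% to 32.9%. Shank1, its relative, fell from 62.8% to 43.3%. Each of the 3 Shank regions thus ended at or below 47.8%. Spred2, an inhibitor of Ras signalling, fell from 55.1% to 37.5%. Bsn, a protein of presynaptic terminals, fell from 60.9% to 45.8%. Ccdc40, a protein of cilia, fell from 59.6% to 43.5%, and Gata6, a transcription factor of endoderm and heart, from 60.6% to 45.5%. Lzts3, also a synaptic protein, fell from 67.8% to 52.2% at a start. With only regions of at least 10% in 1 group adjusted, Neu1, Prkce, Spred2, Ccdc40, Gata6, Lzts3 and the smaller of the Shank3 changes were not called. With the further p-value adjusted, only the Ndufa10 and Spred2 regions among these decreases stayed called. With the q-value none of them did.

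Mn1 and Svop also had called regions that went opposite ways. In Mn1, a transcriptional regulator rearranged in leukaemia and meningioma, a gene body region fell from 77.6% to 64.0% and a start region 1210 bp away rose from 28.4% to 43.8%. In Svop, a transporter-like protein of synaptic vesicles, gene body regions rose from 23.2% to 35.3% and fell from 74.2% to 54.8%. Of 7 pairs of called regions within 10 kb of each other, 5 shared their direction and 2 did not. The Vom2r4 pair among the 5 consists of identical copies, so that its shared direction was given beforehand. In both genes the region called higher and, in Svop, the region called lower were lost when only regions with at least 10% in 1 group were adjusted. The called regions of both genes were lost with the q-value and with the further p-value adjusted.

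Regions past the authors' q-value often differed by under 10 points. Of the 17, HS chow had the higher level at 5 and the lower level at 12. Those that were also called are the 2 Gnas regions, a pair of Hoxaas3 regions and 3 regions without a gene. Hoxaas3, a noncoding RNA antisense to the Hoxa cluster, fell from 35.4% to 20.8% over 17 CpGs. Smaller differences were seen at start regions of Tpt1, a translationally controlled protein (37.9% and 45.2%), of Atmin, a cofactor of the ATM kinase (28.5% and 22.6%), and of Prrc2c (42.0% and 35.1%). A gene body region of Pomc, the precursor of corticotropin and melanocortins, had 4.95% and 0.0361% over 11 CpGs. Kalrn, a guanine nucleotide exchange factor, had 40.3% and 49.6%, Gal3st3, a sulfotransferase, 38.8% and 30.2%, and Vps13b 30.3% and 23.8%. Another Shank3 region had 58.9% and 50.8%, and Lima1, an actin-binding protein, 0.131% and 4.32%. All 17 were chosen by the q-value, so that their differences are a description.

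The list of T cell receptor and identity genes had 0 of 21 genes called, over 53 regions. With 0.995% of all genes called, a list of this size does not stand apart by such a count. Their median difference was 0 points, with 23 regions above and 26 below 0. Cd8a, a co-receptor of cytotoxic T cells, had start regions at 14.9% on LS and 12.0% on HS chow and at 5.90% and 7.75%. Zap70, the kinase that binds the receptor chains, had 3 gene body regions between 48.8% and 88.6% in either group. The start regions of Gata3 and Lef1, transcription factors of T cells, stood at no more than 0.142% in both groups. The largest difference on the list was at Nfatc1, a factor activated by calcineurin, with 70.1% and 62.1% in its gene body. Cd3e, Cd4, Foxp3, Ifng and Il17a had no region here. Helper lineage factors, cytokines and effectors had 0 of 15 genes called, and activation, inhibition and trafficking genes 0 of 14, counts that are also near the share of all genes. In the former, Lta, the cytokine lymphotoxin alpha, had a start region at 4.31% and 0.0708%.

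Of the salt handling and renin-angiotensin list, 28 of 57 genes had a region, 87 regions in all, and 0 were called, near the 0.995% of all genes. The starts of Ace, the angiotensin converting enzyme, lay between 0 and 2.29%. Those of Nr3c2, the mineralocorticoid receptor, lay between 0.680% and 1.74%. The region nearest to a call was at the start of Adrb1, the beta-1 adrenergic receptor, at 11.1% on LS and 2.26% on HS chow, with a difference of -8.84 points in the authors' deposited table (adjusted p = 0.0342). Among oxidant genes 1 of 20, Sod3, was called, which is 5.00% of a short list. Ncf1, a subunit of the phagocyte NADPH oxidase, had a gene body region at 41.4% and 32.1% (adjusted p = 0.00744, difference -9.34 points in the authors' deposited table). Noxo1, the organiser of a related oxidase, had a start region at 28.2% and 22.2%. These 2 stayed under the minimum difference.

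The list of DNA methylation and one-carbon genes had 15 genes with a region and 0 called, again near the 0.995% of all genes. Dnmt1, the maintenance methyltransferase, had gene body regions at 83.6% and 81.9% and at 76.1% and 76.8%. The starts of Dnmt3a, a methyltransferase for unmethylated DNA, were at 0.167% and 0%, and at 0.114% and 2.81%. Dnmt3l, its cofactor, had 4 regions, the farthest apart at 25.6% and 21.8%. Innate and inflammasome signalling had 0 of 13 genes called and homeobox regulators 0 of 90, over 413 regions. Of the G protein and cyclic AMP signalling list, 1 of 38 genes was called, which is Gnas. The counts of these lists, too, are near the share of all genes called.

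Marker genes of other cells were examined in the same way, since the labels give no sort. None was called among 3 B cell genes, 11 myeloid, 2 natural killer cell, 6 erythroid and platelet, 18 kidney epithelium and 13 endothelium and stroma genes with a region. With 0.995% of all genes called, these counts say nothing about the markers. Cd79a, a chain of the B cell receptor, and Cd3e had no region, so that the labelled cell type could be checked in part only. The start of Spi1, the factor that directs myeloid and B cell fates, was at 50.5% on LS and 38.8% on HS chow (5 CpGs, adjusted p = 0.312 in the authors' deposited table). The only other marker region that differed by at least 10 points was in the gene body of Hnf4a, a factor of kidney and liver epithelium, at 49.0% and 34.5%. Whether the mix of cells differed between the groups was not tested.

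Some called positions are copies of each other. Positions with the same values, CpG number and length as another number 1332 in the table, 3.97%. Among the calls there are 8 such positions in 3 sets, and counting each set once leaves 152 calls, 64 higher and 88 lower. Near copies, with the same CpG number and length and both levels within 3 points, are still counted separately in the 152. The Vom2r4 regions, of a vomeronasal receptor family, are 3 positions on chromosome 10 with 1 more outside a gene, all at 64.5% and 84.4%. The Hoxaas3 pair and the Tmco1 region with its copy (46.2% and 32.4%) are the others. The Ndufa10 start has a near copy at chr6:72383869-72383894 with the same number of CpGs and length, at 63.4% and 41.5%. Twf1, an actin-binding protein whose start rose from 23.5% to 39.3%, has 1 on chromosome 5 at 23.5% and 40.4%. The Vom2r4 set has a near copy outside a gene at chr14:129753-129821, at 62.9% and 84.8%. Ust5r and several called regions without a gene have near copies too. Reads of such copies may not be separable, and their place is uncertain.

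The levels of the called regions were set beside those of the other blood groups. These come from the age and colony tables, which share the MCW LS or HS pools with this one. Of the called regions 69 overlap a region with a level in each of the 5 blood groups. MCW LS at 10 weeks was alone the highest or lowest of the 5 in 24 of them, and MCW HS in 18. In 21 the LS and HS groups stood at the 2 ends, and in 6 at neither. The regions were chosen by a difference of at least 10 points between these groups, which by itself favours outer places for them. These counts are therefore a description. The level of MCW LS at 7 weeks was nearer to that of HS in 45 regions and nearer to LS at 10 weeks in 24. Among regions called higher, LS was alone outermost in 14 and HS in 4 of 29, and among those called lower, LS in 10 and HS in 14 of 40. With an overlap of 50% of both regions, 18 were left, and LS and HS were alone outermost in 6 each. Regions were segmented anew in each table, so that overlapping levels can cover different CpGs. At called regions with an overlap, the level of MCW LS at 10 weeks was within 5 points in 80.3% in the age table. In the colony tables this held in 78.9% for MCW LS and in 66.9% for MCW HS.

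Which group stood apart differed between genes. The Nnat and Blcap region was at 34.6% in MCW LS at 7 weeks, 43.7% in CRL LS and 31.8% in CRL HS, by the tables that compare the colonies, against 49.5% in MCW LS at 10 weeks. The CRL salt table puts CRL LS at 52.6%, above that, so that which group was highest depends on the table. Trappc6a was highest in MCW LS at 10 weeks, at 54.5%, with 25.7%, 36.6% and 47.6% in the other groups in the same order. Ttc22 was lowest there, at 24.7%, with 39.4%, 36.9% and 51.0%. MCW HS stood apart at others. Ndufa10 was lowest in MCW HS, at 39.9%, with 54.3% in LS at 7 weeks, 69.3% in CRL LS and 62.0% in CRL HS. The Hoxaas3 regions were lowest there too, at 20.8%, with 24.9%, 32.5% and 35.6%. At Gnas, the 21-CpG region of the middle start had 28.3%, 37.8% and 40.9%, all between MCW LS (22.8%) and HS (44.3%). The downstream start had 23.7%, 27.4% and 32.2%, against 12.7% in MCW LS and 23.9% in HS. Sod3 was at 87.9% in LS at 7 weeks and 92.5% in CRL LS, and the CRL salt table gives 92.0% for CRL LS and 88.5% for CRL HS, all above the 81.2% of MCW HS.

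**Figure D4:**
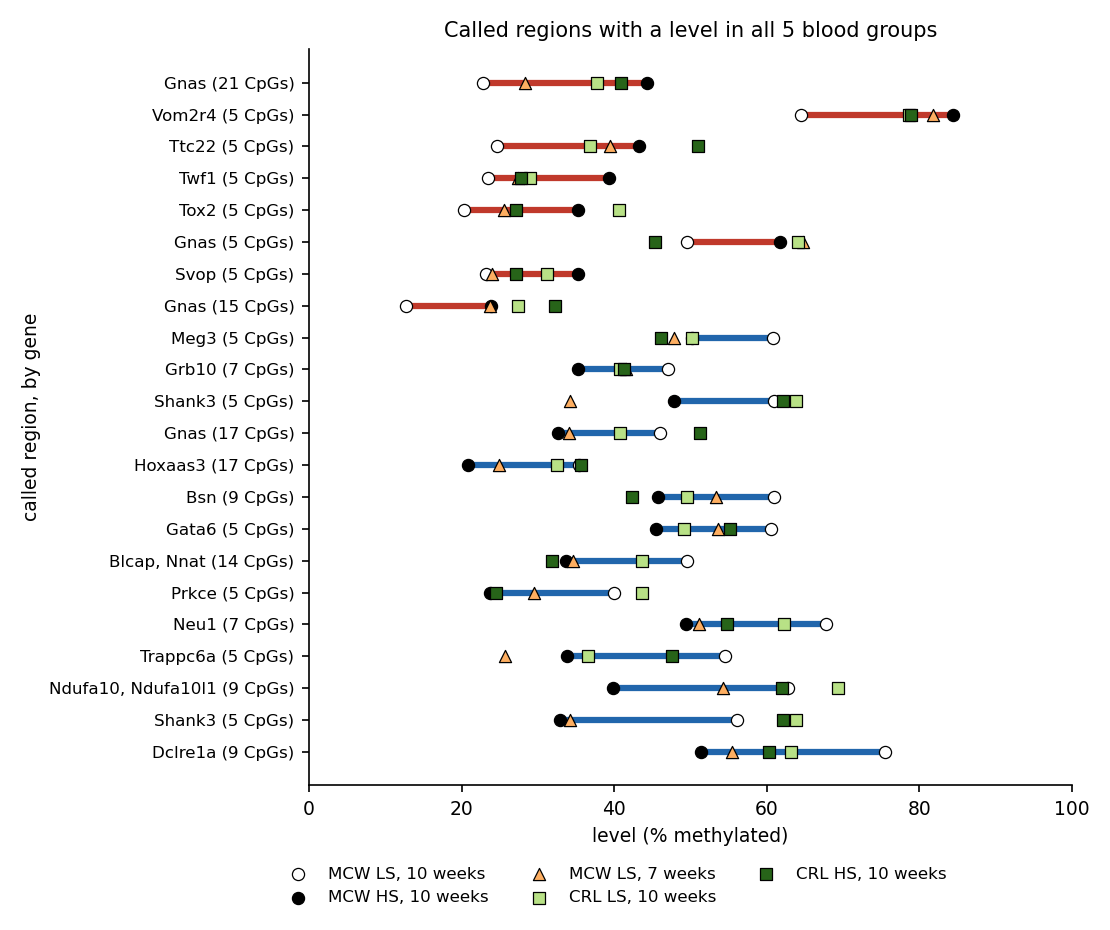
Level (x axis, %) in the 5 blood groups at 22 called regions with a level in each (copies drawn once), 1 region a row. Only genes picked by the naming rules given under processing are drawn. Other called genes with a level in each group, such as Fbxl14 and Disc1, are left out. The bar joins MCW LS (open circle) and MCW HS (filled circle) at 10 weeks, red where called higher and blue where called lower; triangles are MCW LS at 7 weeks, squares CRL rats. In Ndufa10 the HS circle stands apart at 39.9%, and in Trappc6a the LS circle at 54.5%.

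The salt comparison in CRL blood uses other rats and shares no pool. It called 144 of 35823 regions (0.402%), 49 higher (0.137%) and 95 lower (0.265%). Of the 157 regions called in MCW blood 96 overlap a region there, and 43 of these (44.8%) had the same direction, against 50.4% of all 13452 overlapping regions. Regions called higher in MCW blood had the same direction in 14 of 39, and regions called lower in 29 of 57. The calls of MCW blood were thus shared in direction with CRL blood no more often than overlapping regions in general. In CRL blood 12 of the 96 were called, 5 in the same and 7 in the opposite direction. Over all 13452 overlapping regions 70 were called there, and 49 of the 4169 at a mean level of 20 to 80% in MCW blood. Calls in CRL blood were thus more frequent at these regions than over the others, but not mostly in the same direction. The 5 in the same direction are 3.18% of the calls in MCW blood and 3.47% of those in CRL blood. They include the Nnat and Blcap region, which went from 52.6% to 36.4% in CRL blood, and the start of Fbxl14, a ubiquitin ligase subunit, which fell from 15.3% to 4.55% in MCW blood and from 27.7% to 0.827% in CRL blood. Fbxl14 was named after its values were seen. The 5-CpG region of the Gnas middle start went the other way, from 59.5% to 47.3%. Whether the salt effect differed between the colonies at any region could not be tested without values per pool.

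The kidney T cells of the same MCW rats gave more calls and mostly 1 direction. There 4504 of 34115 regions were called (13.2%), 4424 higher (13.0%) and 80 lower (0.235%). Of the regions called in MCW blood 105 overlap a region of the kidney table. Of 48 called higher in blood 47 were higher in kidney (97.9%), and of 57 called lower in blood 51 were higher in kidney (89.5%). Over all overlapping regions at a mean level of 20 to 80% in blood, 90.8% were higher in kidney, so that the share at regions called lower in blood was near that of all. In kidney 49 of the 105 were called, 23 in the direction of blood and 26 in the opposite. Over all 13685 overlapping regions 1949 were called in kidney, and 1285 of the 4537 at a mean level of 20 to 80% in blood. The Ndufa10 start went from 8.98% to 61.8% in kidney while it fell in blood. At others both tissues went up. Disc1, a scaffold protein of neurons named after its values were seen, rose in both, from 68.0% to 79.0% in blood and from 7.04% to 43.3% in kidney. The Gnas start regions that overlap a blood call were all higher on HS chow in kidney: from 12.4% to 39.1% at the upstream start, from 26.7% to 49.0% and 13.4% to 23.1% at the middle start, and from 13.6% to 24.8% at the downstream start. That of 13.4% and 23.1% was not called (adjusted p = 0.0614 in the authors' deposited table). The Nnat and Blcap region had 47.3% on LS and 39.0% on HS chow in kidney, lower in both tissues.

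**Figure D5:**
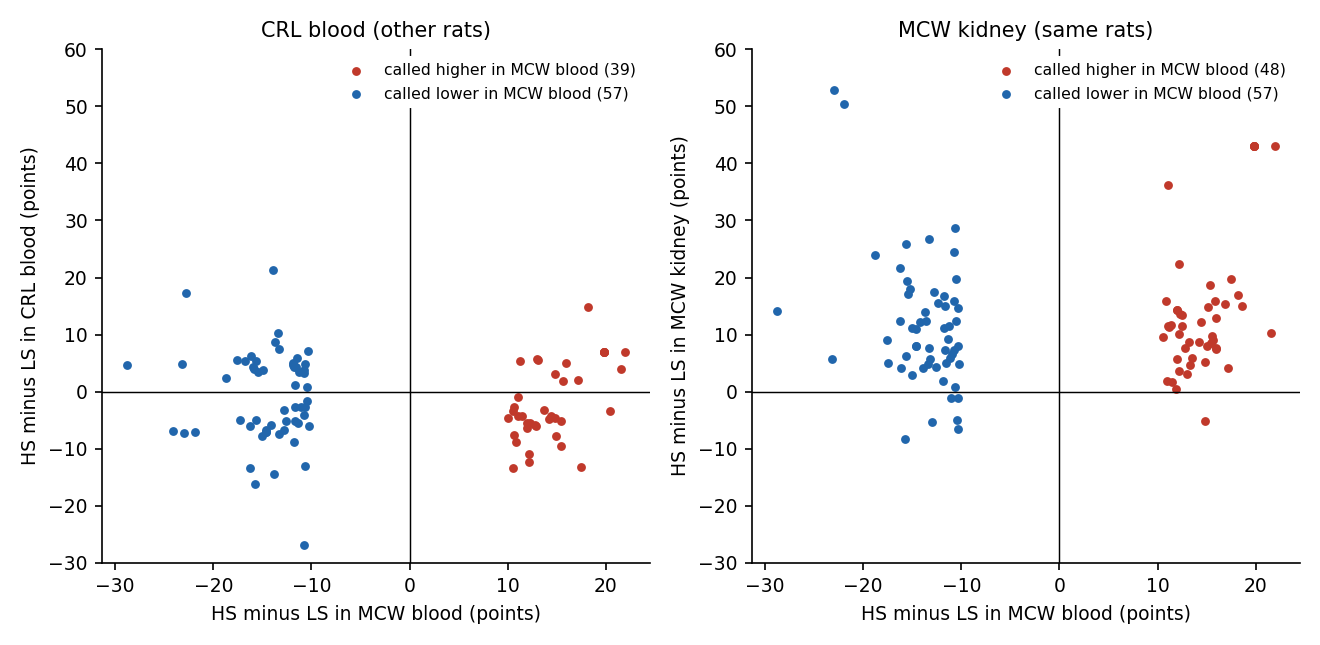
HS minus LS difference in MCW blood (x axis, percentage points) against that of the overlapping region in CRL blood (left, 96 regions) and MCW kidney (right, 105 regions). Each point is a region called higher (red) or lower (blue) in MCW blood. In CRL blood 14 of 39 red points are above 0 and 29 of 57 blue points below, and in kidney 47 of 48 red and 51 of 57 blue points are above 0.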

How the data were processed

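Methylation was measured by reduced representation bisulfite sequencing in pooled T cells, 4 pools a group. The authors deposited 1 table per comparison, with regions of at least 5 CpGs and each group's methylation as a fraction of 0 to 1 (column names in the file headers), turned into percent for the text. Their difference, CpG number, p-value columns (a Mann-Whitney p, its adjusted form, a further p and a q-value), genomic class and gene names are used as deposited. Coordinates are rn5, the build named by the submitters' processing notes. Neither aligner nor caller is given in the sources used here, and the start convention is not stated. Depth is unknown, and 0 columns of per-sample values were left unused. Recomputing the adjusted form by Benjamini-Hochberg over the table gave the deposited values (largest deviation 5.0e-16). The authors' difference departed from that of the levels by over 0.2 points in 3.66% of regions and in 0 of the called ones.

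Differences were turned to HS minus LS. No model was fitted, since no value per pool is given. Regions of other tables were matched by an overlap of at least 1 bp. Of 7247 symbols in the table, 6791 were current in RefSeq GRCr8, 359 matched a synonym and 97 stayed as deposited. Genes were named as those of the 15 largest named increases and decreases, genes with 2 or more called regions, called members of 16 gene lists, regions past the q-value, the 5 largest calls without a gene, and the methyltransferases. The regions, lists and rules were chosen with earlier results of these data known. The overlap and calling steps were tested on simulated data. Python 3.11.15, pandas 2.3.3, numpy 2.4.6, scipy 1.17.1 and matplotlib 3.10.9 were used.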

Additional observations from a re-analysis of the deposited data

How the results depend on the processing

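The mean difference of -0.134 points kept its sign when weighted by CpGs, with the difference of the 2 levels and with only regions of at least 10% in 1 group (-0.165, -0.133 and -0.249). The count of calls, 157 (67 higher, 90 lower), moved with the column and the minimum. It was 7 (1 and 6) with the q-value and 33 (10 and 23) with the further p-value adjusted. It was 5480 without a minimum difference (993 higher, 1984 lower and 2503 at 0), 443 (175 and 268) with 5 points and 12 (3 and 9) with 20. With at least 10 CpGs 17 (9 and 8) were called. With only regions of at least 10% in 1 group 68 (30 and 38) were called, since the near-unmethylated regions with small p-values left the adjustment. Of the 49 named called regions, 7 stayed called with the q-value, 15 with the further p-value, 31 with regions of at least 10% and 11 with 20 points. An overlap of 50% of both regions, and the counting of copies once, were added after the data were seen for the 5-group levels and the calls. LS and HS were alone outermost in 6 regions each, from 24 and 18, and 152 regions were called with identical copies counted once. That overlap left 38.5% of 52 regions in the same direction in CRL blood and 51.8% of 56 in kidney, where 1 bp gave 44.8% and 50.5%. No paired analysis was possible because the tables hold no value per pool, and for the same reason no pool could be left out. Depth limits the levels by an unknown amount.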

Other observations

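Ribosomal RNA genes, chosen after their values were seen, were lower on HS chow almost throughout, by little. Regions that the table gives to Rn5-8s, Rn45s or Rn28s, alone or together with LOC257642 or LOC310926, hold 203 positions, 168 of them distinct. By the levels all 168 were lower on HS chow. By the authors' difference 167 were lower and 1 higher, with a median difference of -2.72 points, against 0 over all regions. The adjusted p was under 0.05 at 36 in the authors' deposited table, and 0 were called. Weighted by CpGs, the level was 22.1% on LS and 19.4% on HS chow. These genes are tandem repeats whose copies share reads, so that the regions are not independent, and the spread between pools is not known. In CRL blood, 119 of 198 distinct regions were lower and 79 higher on HS chow, at 27.3% and 26.6%. In MCW kidney 47 of 159 were lower and 112 higher, at 12.4% and 13.7%, where the median over all regions was 1.85 points. In the table of age, which shares the MCW LS pools at 10 weeks, all 108 were higher by the authors' difference at 10 than at 7 weeks, at 22.4% and 17.3%. The colony tables share MCW pools too. On LS chow 141 of 155 were higher in CRL than in MCW blood and 14 lower, with a median difference of 4.15 points. On HS chow 126 of 127 were higher in CRL and 1 lower, with a median of 6.87 points. Shifts mostly in 1 direction at these genes were thus not particular to the salt comparison. Without the 443 regions within 20 kb of these genes, the mean difference over the MCW blood table was -0.093 points in place of -0.134, and the median at levels of 20 to 40% was -1.64 points in place of -2.44.

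Protocadherins, also chosen after their values were seen, had 24 genes and 65 regions, of which 1 was called, against 0.995% of all genes. Their median difference was -1.43 points, with 24 regions above and 38 below 0. Their median level on LS chow was 27.5%, and all regions at a mean level of 20 to 40% had a median difference of -2.44 points. The protocadherin regions are not confined to these levels, as their start regions had a median of 11.6% on LS chow. The medians of the differences are therefore not of like regions.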
